A study of Mus musculus with 6 samples.

Results

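Genes of DNA replication and S phase were followed in intestinal crypts of wild-type (WT) and Mtg16-/- mice. The 53 genes were taken from a list of replication licensing, DNA synthesis, nucleotide supply, E2F and chromatin copying genes, and all 53 were found among the 24736 gene symbols of the deposited table. Levels are in TPM, a measure of transcript abundance that corrects for transcript length and scales each library to the same total. RNA was sequenced from 3 WT and 3 Mtg16-/- male mice of 12 weeks, with 1 library per mouse, and the mice had received no treatment. Crypts were taken along the whole gut in cold EDTA, and total RNA was depleted of ribosomal RNA. The loss of Mtg16 is not restricted to the crypt or to 1 of its cell types. The labels attribute it to CRISPR, whereas the paper describes a mouse line received as a gift.

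Chromosomes are copied during S phase. In G1, the origin recognition complex, Cdc6 and Cdt1 load the MCM2-7 helicase onto DNA, and Cdc45 and the GINS complex then turn it into an active motor. Primase and polymerase alpha start new strands, which are extended by polymerases delta and epsilon on the ring-shaped clamp Pcna, and the lagging strand is joined by Fen1 and Lig1. E2F factors and cyclin E drive many of these genes as cells pass from G1 to S. In the intestine, stem cells at the crypt base and the transit-amplifying cells above them divide, whereas mature enterocytes and Paneth cells do not. Mtg16, encoded by Cbfa2t3, is a transcriptional co-repressor.

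Promoter windows were compared first because the sequence at the start of a gene is independent of the RNA values. RefSeq windows from 250 bases before to 50 bases after the start were matched for 45 of the 53 genes (GRCm38.p6), with 53 windows in all because some genes have more than 1 start. Of these windows, 28 sat at the outermost RefSeq start of the gene and 25 at a start further inside it, by up to 8508 bases. The windows were searched on both strands for an E2F-type motif, spelled TTTGGCGC, TTTGCCGC, TTTCGCGC or TTTCCCGC. A match was held by 19 of 45 genes (42.2%), compared with 443 of 9533 tested genes with a window (4.65%) and 704 of 27025 genes in all (2.60%). Counted by window, the shares were 19 of 53 (35.8%), 470 of 12102 (3.88%) and 744 of 32851 (2.26%). Of the 26 matches, 16 lay from 100 bases before to 50 bases after the start, and 6 genes held more than 1 match, some of which overlapped each other.

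The share differed among the roles. Licensing genes held a match in 7 of 10 genes with a window, and the nucleotide supply and uracil removal genes in 0 of 6. Of 25 genes of mitosis, a later step of the cell cycle, 20 had a window, and 1 of these held an E2F-type match. TTTGAA, the core letters of the CHR element that many mitotic genes carry, was present in 14 of the 20 mitosis genes (70%) and in 7 of 45 replication and S phase genes (15.6%), against 14.5% of tested genes and 20.2% of all genes. CCAAT was found in 28 of 45 (62.2%, tested genes 43.3%, all genes 41.1%) and GGGCGG in 37 of 45 (82.2%, tested genes 68.0%, all genes 38.2%). Windows with GGGCGG were not in general rich in the E2F-type motif, which 5.38% of the tested genes with GGGCGG held, compared with 43.2% of the 37 replication and S phase genes with it. Many of the 53 genes are textbook E2F targets, so these shares describe the list and were not tested. Each match is a run of letters, and binding at these sites was not measured here.

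**Figure D1:**
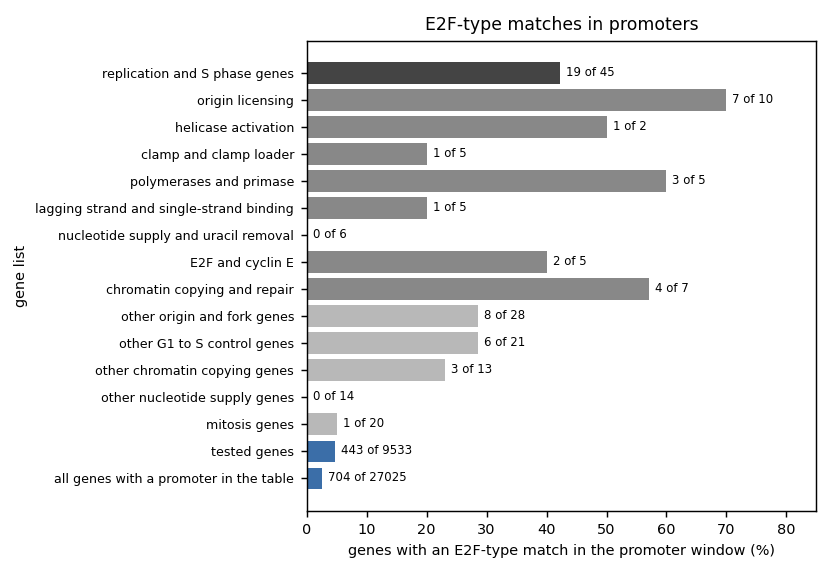
Percentage of genes in each list (y axis) whose promoter window, 250 bases before to 50 after the start, held an E2F-type match (x axis, %), with the number of genes with a match, of genes with a window, beside each bar. Among the 53 genes, 45 had a window and 19 of these a match (42.2%), against 4.65% of tested genes, and the nucleotide supply and uracil removal genes held a match in 0 of 6.

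Windows are printed for 6 genes on which the RNA results below turn, 5 with a match and Tk1 without one. E2F-type matches are in capitals, and each sequence runs 5′ to 3′ along its own gene. In Mcm6, 2 of the 3 matches overlap and form 1 run of capitals. The Cdc6 window is built on a start 442 bases inside the outermost RefSeq start, and that of Tk1 on one 73 bases inside it.
Mcm6 (chr1:128359656-128359955, minus strand): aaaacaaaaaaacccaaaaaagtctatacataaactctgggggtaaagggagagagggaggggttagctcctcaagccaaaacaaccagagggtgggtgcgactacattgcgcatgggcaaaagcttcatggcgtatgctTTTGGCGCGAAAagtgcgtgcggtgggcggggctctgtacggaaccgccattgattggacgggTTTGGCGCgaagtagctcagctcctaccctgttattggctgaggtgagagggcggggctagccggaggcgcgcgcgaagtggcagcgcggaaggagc
Cdc6 (chr11:98907901-98908200, plus strand): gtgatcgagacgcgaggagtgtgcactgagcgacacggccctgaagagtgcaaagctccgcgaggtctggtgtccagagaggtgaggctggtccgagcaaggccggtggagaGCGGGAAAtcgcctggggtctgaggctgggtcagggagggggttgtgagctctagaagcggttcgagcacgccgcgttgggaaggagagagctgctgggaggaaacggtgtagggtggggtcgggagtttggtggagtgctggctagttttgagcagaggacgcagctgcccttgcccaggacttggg
Gins3 (chr8:95633309-95633608, plus strand): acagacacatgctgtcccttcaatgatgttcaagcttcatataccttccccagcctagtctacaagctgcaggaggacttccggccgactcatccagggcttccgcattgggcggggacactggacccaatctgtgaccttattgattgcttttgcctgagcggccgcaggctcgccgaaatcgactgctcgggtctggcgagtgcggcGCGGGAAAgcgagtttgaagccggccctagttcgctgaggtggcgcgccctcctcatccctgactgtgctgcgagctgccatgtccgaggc
Rfc3 (chr5:151651159-151651458, minus strand): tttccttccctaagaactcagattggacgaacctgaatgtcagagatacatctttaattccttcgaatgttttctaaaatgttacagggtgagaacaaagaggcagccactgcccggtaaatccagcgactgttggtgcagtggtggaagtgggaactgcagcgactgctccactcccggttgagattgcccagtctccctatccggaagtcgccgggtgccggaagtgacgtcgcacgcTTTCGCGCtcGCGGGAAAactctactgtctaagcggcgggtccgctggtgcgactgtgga
Tk1 (chr11:117825965-117826264, minus strand): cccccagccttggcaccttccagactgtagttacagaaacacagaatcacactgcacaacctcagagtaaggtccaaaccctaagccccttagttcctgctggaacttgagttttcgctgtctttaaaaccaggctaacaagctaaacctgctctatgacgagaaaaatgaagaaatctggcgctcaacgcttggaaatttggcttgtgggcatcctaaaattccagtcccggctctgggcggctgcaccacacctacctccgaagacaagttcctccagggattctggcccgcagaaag
E2f2 (chr4:136172024-136172323, plus strand): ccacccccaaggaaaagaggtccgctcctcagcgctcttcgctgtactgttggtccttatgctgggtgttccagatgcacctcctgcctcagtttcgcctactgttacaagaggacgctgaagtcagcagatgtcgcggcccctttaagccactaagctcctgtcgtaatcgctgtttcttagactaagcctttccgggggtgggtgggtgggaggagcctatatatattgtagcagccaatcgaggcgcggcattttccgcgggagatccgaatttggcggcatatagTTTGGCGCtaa
The sequence of Mcm6 held 3 matches, Rfc3 held 2, and Cdc6, Gins3 and E2f2 held 1 each.

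All 53 genes were expressed in every library, with mean levels from 5.72 TPM for Gins3 to 247 TPM for Pcna and a median of 35.8 TPM. Pcna was the highest of the 53 in all 6 libraries. Together the genes summed to 1806, 2557 and 2507 TPM in WT replicates 1 to 3 and to 2137, 2600 and 2798 TPM in Mtg16-/- replicates 1 to 3, which is 0.181 to 0.280% of all TPM. The sums averaged 2290.1 ± 419.7 TPM in WT and 2512 ± 339 TPM in Mtg16-/- (SD, n = 3), and the groups overlapped. WT replicate 1 was the lowest library, at 0.713 of the mean of the other WT libraries. The depth of the libraries is unknown, because TPM keeps no read number.

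The low level in WT replicate 1 ran through nearly the whole list. It was the lowest of the 6 libraries for 42 of the 53 genes (79.2%), compared with 26.4% of all 12268 tested genes. Mtg16-/- replicate 1 was lowest for 8 genes (15.1%, background 10.2%), and Mtg16-/- replicate 3 was highest for 24. The median SD of the 53 genes on the log2(TPM + 1) scale was 0.27 over 3 WT mice and 0.20 over 3 Mtg16-/- mice. It was 0.06 over WT replicates 2 and 3. Leaving out the most distant library lowers an SD in any case, so this value does not estimate the spread between WT mice.

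**Figure D2:**
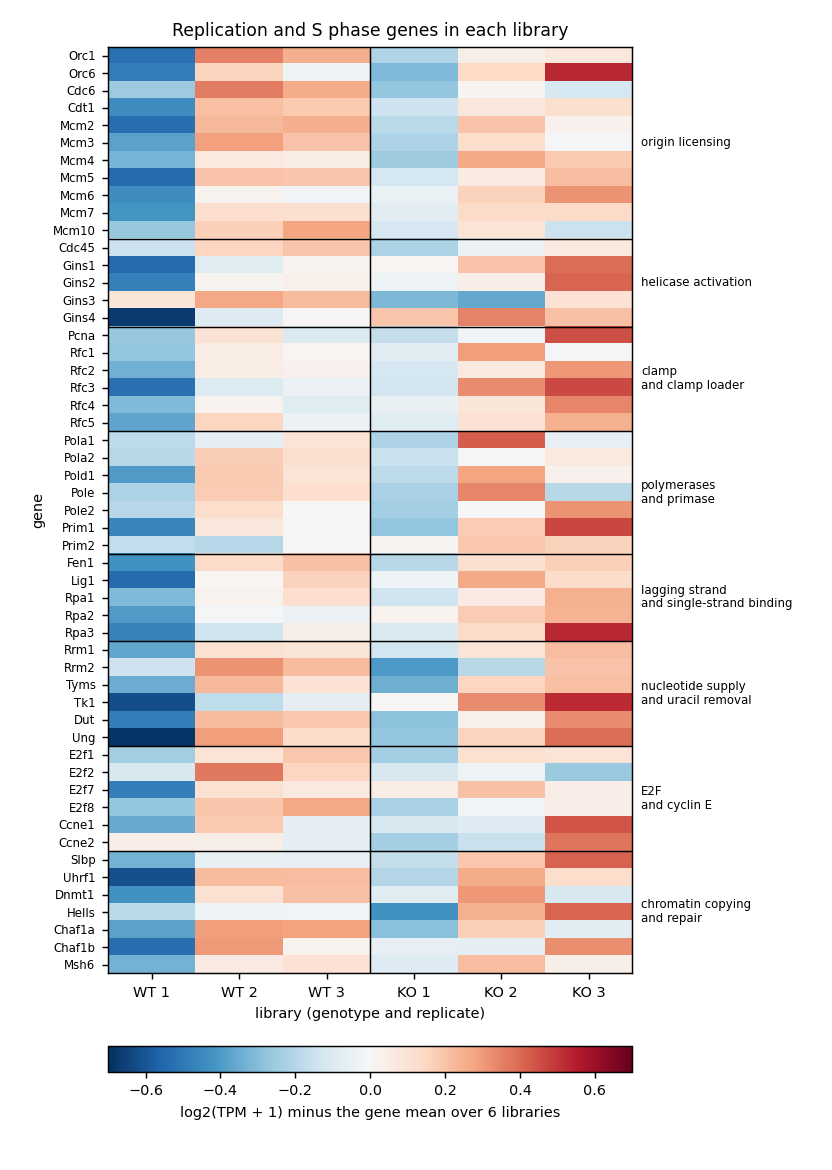
Heat map of the 53 genes (rows, grouped by role) in the 6 libraries (columns), coloured by log2(TPM + 1) minus the mean of the gene over the 6 libraries. WT replicate 1 was the lowest library for 42 of the 53 genes and Mtg16-/- replicate 3 the highest for 24.

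Markers of other crypt cells also differed between libraries, and not every list was lowest or highest in WT replicate 1. The 12 enteroendocrine markers summed to 582, 494 and 467 TPM in WT replicates 1 to 3 and to 670 to 788 TPM in Mtg16-/-. WT replicate 1 was the lowest library for 1 of these 12. Of them, 9 were higher in every Mtg16-/- library than in any WT library (75%, background 9.94%). The 15 enterocyte markers, including the apolipoproteins Apoa1 and Apoa4 and the fatty acid binding proteins, summed to 43867 TPM in WT replicate 1, 15101 to 18802 TPM in the other WT libraries and 7665 to 14569 TPM in Mtg16-/-. None of the 15 was at 0 in any library. The 10 crypt base stem cell markers, such as Lgr5 and Olfm4, had their lowest sum in WT replicate 1, with 891 TPM, compared with 1384 and 1523 TPM in the other WT mice and 1652 to 2193 TPM in Mtg16-/-. Most of this sum was Olfm4, with 647 TPM in WT replicate 1, where Lgr5 had 6.02 TPM. Taken singly, all 10 markers were lowest in WT replicate 1 (100%, background 26.4%). The 9 Paneth cell markers summed to 9979 to 23083 TPM in WT and to 28085 to 35542 TPM in Mtg16-/-, and the 12 immune markers to 178 to 443 TPM and 105 to 264 TPM. Of the Paneth markers, 6 were higher in every Mtg16-/- library than in any WT library (66.7%, background 9.94%). Mmp7 and Pla2g2a overlapped, with log2 fold changes of Mtg16-/- over WT of 0.12 each. Of the immune markers, 11 had a log2 fold change below 0, while Jchain was at 1.23. The sum of the 8 general crypt epithelium markers, led by Krt8 and Krt19, stayed between 9223 and 10456 TPM in all libraries. Single genes moved more, and 4 of the 8 had a log2 fold change below 0. Vil1 ranged from 1857 TPM in WT replicate 1 to 543 TPM in Mtg16-/- replicate 3. Cdx2 and Krt18 were higher in every Mtg16-/- library than in any WT library (25%, background 9.94%). The 11 markers of stroma, vessel and blood summed to 7.79 to 38.8 TPM, with Hba-a1 or Hbb-bs at 0 in some libraries. The part of these cell types in the results below was not tested. In bulk crypts, fewer cells in S phase and less RNA of these genes per cell cannot be told apart.

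**Figure D3:**
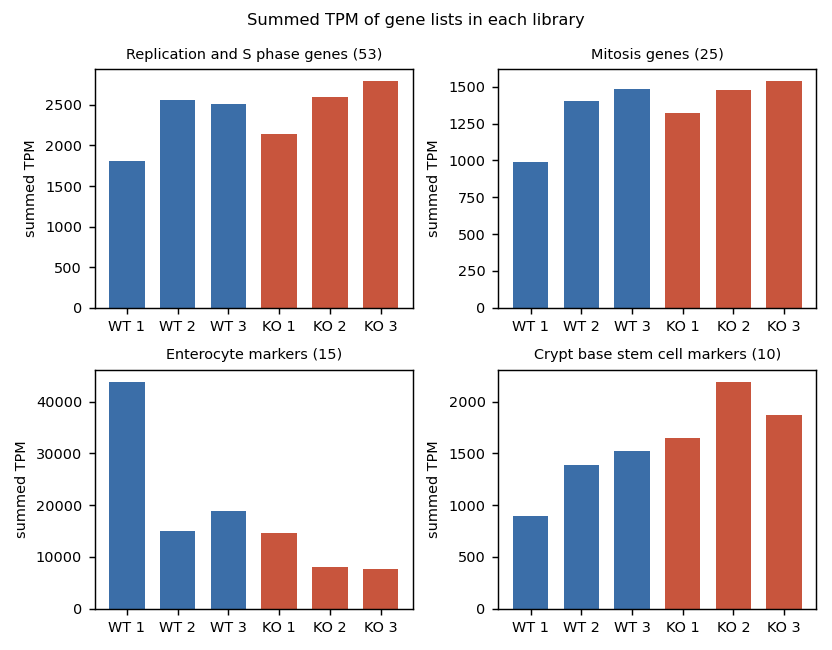
Summed TPM (y axes, from 0) of 4 gene lists in each library (x axes; WT in blue, Mtg16-/- in red). WT replicate 1 had the lowest sum of replication and S phase genes (1806 TPM), of mitosis genes (988 TPM) and of stem cell markers (891 TPM), and the highest sum of enterocyte markers (43867 TPM).

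Cbfa2t3 (chr8:122625136-122699332), the targeted gene, did not separate the groups at the gene level. It measured 3.67, 6.69 and 4.52 TPM in WT and 4.62, 6.43 and 3.23 TPM in the libraries labelled Mtg16 KO (log2 fold change -0.06, adjusted p = 0.937, limma). A gene-level TPM can count transcript that remains outside a deleted part, so this value does not check the genotype. Of the 53 genes, 6 lie on the same chromosome. Cdt1 is 52.0 kb from Cbfa2t3, Gins2 2.04 Mb, Gins3 27.0 Mb and Gins4 99.4 Mb, and the others are Orc6 and Mcm5.

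None of the 53 genes passed the main test between genotypes, which had no replicate block. With limma on log2(TPM + 1) and Benjamini-Hochberg adjustment over all 12268 genes with a mean of at least 1 TPM, an adjusted p under 0.1 was reached by 4 genes (0.0326%), namely Klhdc4, Cirbp, Ces1c and Creld2. Adjusted p for the 53 ranged from 0.282 to 0.983. At an unadjusted p under 0.05, Gins4 and Tk1 were higher in Mtg16-/- (2 of 53, 3.77%, against 6.53% of all tested genes) and 0 were lower (background 8.05%). The groups did not overlap for Gins4, Prim2, Rpa2 and Tk1, all higher in Mtg16-/- (7.55%, background 9.94%), and were fully separated in the lower direction for 0 genes (background 11.1%). Neither Gins4 nor Tk1 stayed under that unadjusted limit when Mtg16-/- replicate 2 or replicate 3 was left out, which gave 0 higher genes. Without Mtg16-/- replicate 1, 6 were higher. Background shares are not given for these fits, so the counts cannot be read against all tested genes. With a replicate block, 1201 genes were called (9.79%), among them 2 of the 53, Rfc3 and Tk1.

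The direction of the list depended on WT replicate 1. With all 6 libraries, the fitted log2 fold change of Mtg16-/- over WT was above 0 for 39 of 53 genes (73.6%, background 46.4%), with a median of 0.12 and a range from -0.38 for Gins3 to 0.57 for Tk1. The median of all tested genes was -0.03. Without WT replicate 1, the value was above 0 for 24 genes and below 0 for 29 (45.3% above, background 45.2%), and the median of the list was -0.03, the same as that of all tested genes. No gene of the list was called in that fit either, in which 20 genes were called in all (0.163%). Gins4 and Tk1 then remained at an unadjusted p under 0.05 on the higher side (3.77%, background 5.36%), and Cdc6 and E2f2 joined on the lower side (background 6.13%).

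The intervals give the differences compatible with the 6 libraries, gene by gene and without adjustment for the number of genes. They do not mark what the adjusted test could miss. The enterocyte marker Rbp2, with a log2 fold change of -2.05, was not called either (adjusted p = 0.219, limma). The 95% interval of the log2 fold change included 0 for 51 of the 53 genes and reached past 1, only for Tk1, with an upper bound of 1.01. The lowest lower bound was -0.80, for Gins3. The median distance from the estimate to the end of its interval was 0.44 on the log2 scale.

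**Figure D4:**
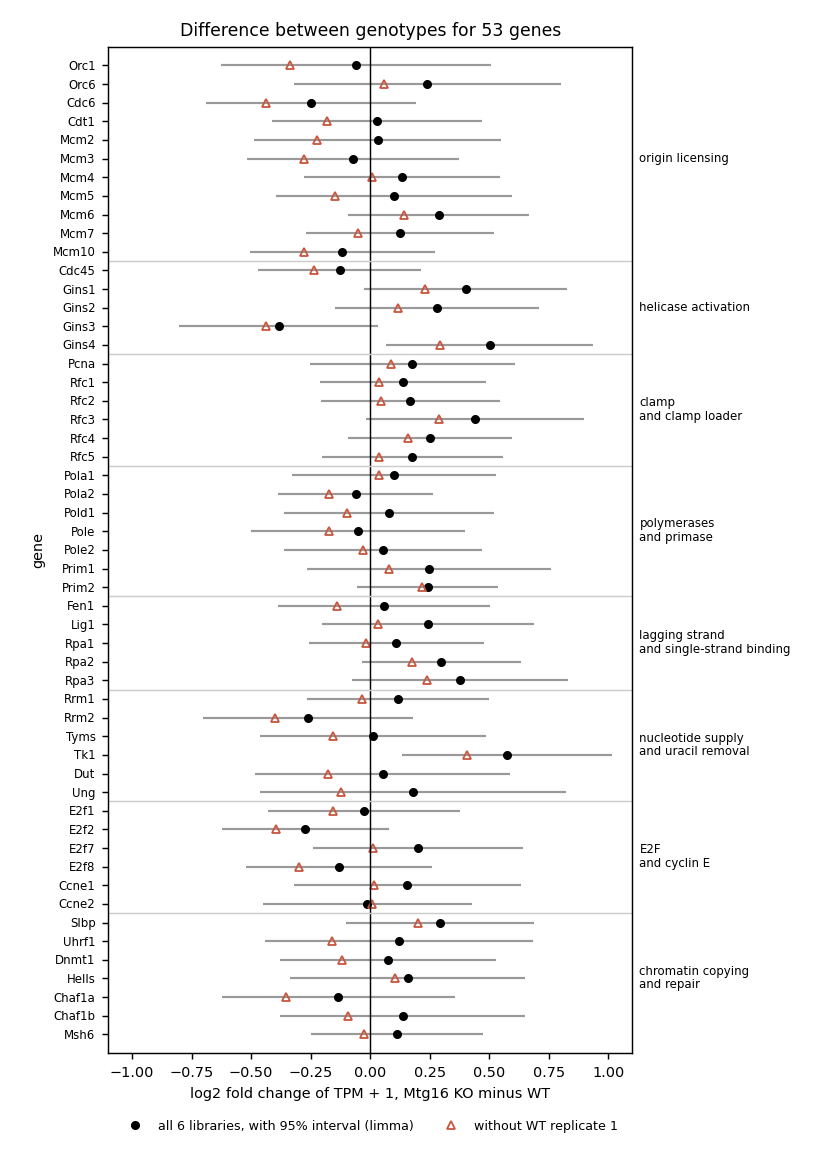
Log2 fold change of TPM + 1, Mtg16-/- minus WT (x axis), for each of the 53 genes (y axis, grouped by role). Black points and grey lines are estimates and 95% intervals of the limma fit on 6 libraries, and open triangles are estimates without WT replicate 1. The intervals of Gins4 and Tk1 lie above 0, and the triangles lie to the left of the points for nearly all genes.

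Among the 11 licensing genes, the estimates split between the helicase subunit Mcm6 and the loader Cdc6. Mcm6, which was the highest of the MCM2-7 subunits in every library, measured 87.7, 121 and 117 TPM in WT and 115, 133 and 148 TPM in Mtg16-/-. The groups overlapped, and the log2 fold change was 0.29 ± 0.16 (SE, n = 3 and 3; adjusted p = 0.436, limma), and 0.14 without WT replicate 1. Cdc6, the ATPase that recruits the helicase to origins, measured 9.70, 15.4 and 14.2 TPM in WT and 9.56, 11.9 and 10.7 TPM in Mtg16-/-, with a log2 fold change of -0.25 ± 0.19 (adjusted p = 0.549). WT replicate 1 was as low as the Mtg16-/- libraries, and the difference was -0.44 without it. As printed above, the windows of both genes hold an E2F-type match.

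Without WT replicate 1, the licensing genes had the lowest median of the 8 roles. Their median log2 fold change was 0.03 with all libraries and -0.18 without that library, and 6 of the 11 (Orc1, Cdc6, Cdt1, Mcm2, Mcm3 and Mcm10) then lay below WT replicates 2 and 3 in all Mtg16-/- mice. Over the 53 genes, 13 did so (24.5%, background 16.9%), and 4 lay above (7.55%, background 14.5%). Within the hexamer, Mcm4 was the lowest subunit in all 6 libraries, and Mcm6 exceeded it by 2.19-fold to 2.74-fold.

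Of the 4 subunits of GINS, the complex that completes the active helicase, 3 had estimates above 0 and Gins3 below 0, and none was called. Gins4 measured 17.0, 25.9 and 27.8 TPM in WT and 31.8, 35.4 and 32.1 TPM in Mtg16-/-, so that every Mtg16-/- library was above every WT library. Its log2 fold change was 0.50 ± 0.19 (95% interval 0.07 to 0.93; adjusted p = 0.307), and 0.29 without WT replicate 1. Gins1 measured 10.7, 15.1 and 16.3 TPM in WT and 16.2, 18.5 and 21.3 TPM in Mtg16-/- (log2 fold change 0.40 ± 0.18, adjusted p = 0.363), and its estimate was 0.23 without WT replicate 1. Gins2 was close to Gins4 in level, with 21.0, 29.8 and 30.2 TPM in WT and 28.7, 30.5 and 39.4 TPM in Mtg16-/- (0.28 ± 0.19, adjusted p = 0.496; 0.11 without WT replicate 1). The groups overlapped for both of these subunits.

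Gins3 measured 6.01, 7.0 and 6.72 TPM in WT and 4.32, 4.16 and 6.09 TPM in Mtg16-/-, with overlapping groups, and it was the lowest of the 53 genes in all libraries except WT replicate 1, where Orc1 was lower. Its log2 fold change was -0.38 ± 0.18 (95% interval -0.80 to 0.03; adjusted p = 0.368), and it was -0.44 without WT replicate 1. Within each library, the ratio of Gins4 to Gins3 was 2.83, 3.70 and 4.13 in WT and 7.36, 8.52 and 5.26 in Mtg16-/-. The ratio of Gins1 to Gins3 was 1.79, 2.15 and 2.42 in WT and 3.74, 4.45 and 3.50 in Mtg16-/-. These ratios do not depend on the scaling of a library, and the groups did not overlap in either. They were chosen after the values had been seen and were not tested, and 403 of the 1378 possible ratios among the 53 genes (29.2%) also did not overlap. Cdc45, which joins GINS on the helicase, had a log2 fold change of -0.13.

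**Figure D5:**
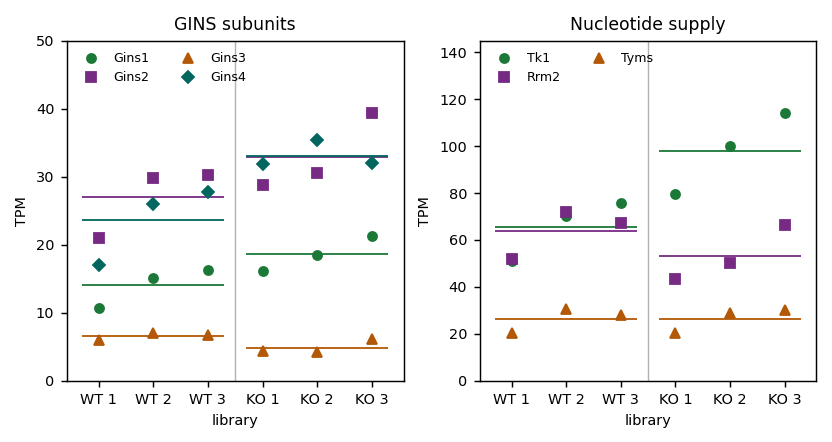
TPM (y axes, from 0) of the 4 GINS subunits (left) and of Tk1, Rrm2 and Tyms (right) in each library (x axes), with horizontal lines at the mean of each genotype. Gins4 and Tk1 were higher in every Mtg16-/- library than in any WT library, while Gins3 and Rrm2 had lower means in Mtg16-/-.

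All 6 genes of the clamp and its loader had estimates above 0, with and without WT replicate 1 (medians 0.18 and 0.07). Rfc3, a subunit of the loader that opens Pcna and closes it around DNA, measured 26.1, 35.4 and 36.8 TPM in WT and 34.5, 48.1 and 52.7 TPM in Mtg16-/-. Mtg16-/- replicates 2 and 3 were above all WT mice, replicate 1 was not, and the log2 fold change was 0.44 ± 0.20 (adjusted p = 0.354; 0.29 without WT replicate 1). Pcna measured 202, 261 and 227 TPM in WT and 217, 240.2 and 333 TPM in Mtg16-/- (0.18 ± 0.19, adjusted p = 0.665; 0.09 without WT replicate 1). Its positive mean rested on Mtg16-/- replicate 3, since the estimate was -0.0032 without that library. Rfc2 was the highest of the 5 loader subunits in every library, and the ratio of Rfc3 to Rfc2 ranged from 0.540 to 0.588 in WT and from 0.613 to 0.747 in Mtg16-/-. That ratio was chosen after the values had been seen and was not tested, and 29.2% of all ratios among the 53 genes also did not overlap.

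The 7 genes of the replicative polymerases and primase had a median log2 fold change of 0.08, and of -0.03 without WT replicate 1. Prim2, the large primase subunit, was the one gene here whose groups did not overlap, at 15.9, 15.6 and 18.1 TPM in WT and 18.3, 20.7 and 20.3 TPM in Mtg16-/-. The closest libraries differed by little, and the log2 fold change was 0.24 ± 0.13 (adjusted p = 0.413). Prim1, which synthesizes the RNA primer, measured 30.1, 44.0 and 42.0 TPM in WT and 34.2, 47.4 and 58.1 TPM in Mtg16-/- (0.25 ± 0.22, adjusted p = 0.605), and its estimate was 0.08 without WT replicate 1. Pola2, the regulatory subunit of polymerase alpha, measured 31.7, 41.2 and 39.5 TPM in WT and 32.6, 36.3 and 38.2 TPM in Mtg16-/-, with an estimate of -0.06 ± 0.14 (adjusted p = 0.859; -0.17 without WT replicate 1). Its groups overlapped almost entirely. Prim2 also overlaps a pseudogene in the annotation, which makes its count less certain.

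All 5 genes of the lagging strand and of single-strand binding had estimates above 0, with a median of 0.24 that became 0.03 without WT replicate 1. Rpa3, the small subunit of the single-strand binding protein RPA, measured 40.8, 51.4 and 58.5 TPM in WT and 52.9, 62.4 and 82.4 TPM in Mtg16-/- (0.38 ± 0.20, adjusted p = 0.408; 0.24 without WT replicate 1). Rpa2, the middle subunit, measured 25.9, 34.1 and 33.5 TPM in WT and 35.0, 39.0 and 41.0 TPM in Mtg16-/- (0.30 ± 0.14, adjusted p = 0.381; 0.18 without WT replicate 1). The groups overlapped for Rpa3 and did not for Rpa2. Lig1, the ligase that seals Okazaki fragments, measured 40.5, 59.7 and 66.2 TPM in WT and 57.9, 71.3 and 64.9 TPM in Mtg16-/- (0.24 ± 0.19, adjusted p = 0.562), and its estimate was 0.03 without WT replicate 1.

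Among the 6 nucleotide supply and uracil removal genes, 5 had estimates above 0, and Rrm2 was the one below. Tk1, the salvage enzyme that phosphorylates thymidine, measured 51.2, 70.0 and 75.8 TPM in WT and 79.8, 100 and 114 TPM in Mtg16-/-. Every Mtg16-/- library was above every WT library. The log2 fold change was 0.57 ± 0.19 (95% interval 0.13 to 1.01; adjusted p = 0.282), the highest of the 53 genes, and 0.41 without WT replicate 1. Rrm2, the small subunit of ribonucleotide reductase and a rate-limiting enzyme for all deoxynucleotides, measured 52.0, 71.9 and 67.4 TPM in WT and 43.3, 50.3 and 66.4 TPM in Mtg16-/- (-0.26 ± 0.19, adjusted p = 0.531). The groups overlapped, and the difference was -0.40 without WT replicate 1.

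Levels of Tk1 were also set against those of other genes of this role inside each library. The ratio of Tk1 to Rrm2 was 0.985, 0.974 and 1.12 in WT and 1.84, 1.99 and 1.72 in Mtg16-/-, with means of 1.03 ± 0.08 and 1.85 ± 0.14 (SD, n = 3). The ratio of Tk1 to Tyms, the de novo thymidylate synthase, was 2.54, 2.30 and 2.71 in WT and 3.93, 3.47 and 3.78 in Mtg16-/-. WT replicate 1 did not stand apart from the other WT mice in either ratio. Both ratios were chosen after the values had been seen and were not tested, and 29.2% of all ratios among the 53 genes also did not overlap. Tk1 overlaps Afmid, which was at 7.45 to 12.3 TPM in WT and 5.92 to 7.79 TPM in Mtg16-/-, and whether the counting used strand is not stated. The other genes of this role (Rrm1, Tyms, Dut and Ung) had estimates from 0.01 to 0.18, all below 0 without WT replicate 1.

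The 6 E2F and cyclin E genes had a median log2 fold change of -0.02, and 4 of the 6 estimates were below 0. E2f8, an atypical E2F that represses replication genes late in S phase, had the highest level, with 37.3, 51.9 and 54.7 TPM in WT and 38.5, 44.5 and 46.7 TPM in Mtg16-/- (-0.13 ± 0.17, adjusted p = 0.731; -0.30 without WT replicate 1). E2f2, an activator, measured 32.6, 45.9 and 39.4 TPM in WT and 32.6, 34.4 and 29.4 TPM in Mtg16-/- (-0.27 ± 0.15, adjusted p = 0.428). WT replicate 1 lay among the Mtg16-/- libraries, and the difference was -0.40 without it. E2f7, the other atypical member, measured 5.52, 8.78 and 8.53 TPM in WT and 8.41, 9.46 and 8.40 TPM in Mtg16-/- (0.20 ± 0.19, adjusted p = 0.627), and its estimate was 0.01 without WT replicate 1.

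Of the 7 chromatin copying and repair genes, 6 had estimates above 0 with all libraries and 2 without WT replicate 1. Uhrf1, which guides the maintenance methyltransferase Dnmt1 to newly copied DNA, measured 55.8, 101 and 100.1 TPM in WT and 74.6, 103 and 93.9 TPM in Mtg16-/-. WT replicate 1 was far below its group, and the log2 fold change of 0.12 ± 0.24 (adjusted p = 0.840) became -0.16 without it. Slbp, which binds the stem-loop of histone mRNA, measured 55.6, 67.5 and 67.2 TPM in WT and 62.4, 80.0 and 93.6 TPM in Mtg16-/- (0.29 ± 0.17, adjusted p = 0.441). Chaf1a, the large subunit of the histone chaperone CAF-1, measured 25.6, 41.2 and 40.9 TPM in WT and 27.2, 37.7 and 31.6 TPM in Mtg16-/- (-0.13 ± 0.21, adjusted p = 0.784), and its estimate was -0.35 without WT replicate 1.

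The estimates were also read by whether the window held an E2F-type match, with no test. The 19 genes with a match had a median log2 fold change of 0.10 and the 26 genes with a window but no match 0.13, and without WT replicate 1 the medians were -0.10 and -0.07. No window was matched for Gins1, Gins2, Gins4, Mcm4, Prim2, Rfc2, Ccne2 and Pole, so these genes are in neither group. Gins3, Cdc6 and E2f2, with a match, had negative estimates, and Mcm6 and Rfc3, also with a match, had positive ones. Tk1, whose window as printed above held none, had the highest estimate of the 53.

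In 5 further lists of genes from the same pathways, 0 genes were called in the main fit (background 0.0326%). Among 35 other origin and fork genes, 3 were higher (8.57%, background 6.53%) and 1 was lower (2.86%, background 8.05%) at an unadjusted p under 0.05. Without WT replicate 1 there were 2 higher (background 5.36%) and 4 lower (background 6.13%). Orc5, a subunit of the origin recognition complex, measured 11.2, 10.2 and 10.1 TPM in WT and 15.9, 17.3 and 19.5 TPM in Mtg16-/- (log2 fold change 0.69 ± 0.13, adjusted p = 0.171). WT replicate 1 was not low for Orc5, and the estimate was 0.73 without it. Rnaseh2a, the catalytic subunit of RNase H2, had an estimate of 0.58 ± 0.20 (adjusted p = 0.288; 0.38 without WT replicate 1), and the helicase Recql4 one of -0.51 ± 0.15 (adjusted p = 0.263). The groups did not overlap for any of these 3 genes, which were named for the smallest p in their list. Over the 35 genes, 4 were higher in every Mtg16-/- library than in any WT library (11.4%, background 9.94%). Recql4 was the 1 gene with the reverse (2.86%, background 11.1%).

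Of 16 other nucleotide supply genes, 3 were higher (18.8%, background 6.53%) and 0 were lower (background 8.05%) at an unadjusted p under 0.05. Without WT replicate 1 there were 2 higher (background 5.36%) and 3 lower (background 6.13%). The 3 higher genes were the mitochondrial deoxyguanosine kinase Dguok (0.40 ± 0.12, adjusted p = 0.263), Paics of purine synthesis (0.60 ± 0.21, adjusted p = 0.286; 0.39 without WT replicate 1) and Impdh2 of guanine nucleotide synthesis (0.50 ± 0.20, adjusted p = 0.314; 0.28 without WT replicate 1). Among the 27 tested genes of G1 to S control, 4 were higher (14.8%) and 2 lower (7.41%), against the same backgrounds. Without WT replicate 1 there were 2 in each direction, against 5.36% higher and 6.13% lower among all tested genes. Cyclin D3 (Ccnd3) measured 33.7, 47.3 and 42.2 TPM in WT and 22.1, 27.6 and 29.9 TPM in Mtg16-/- (-0.61 ± 0.17, adjusted p = 0.263). The other D cyclins, Ccnd1 (0.64 ± 0.25, adjusted p = 0.312, and 0.39 without WT replicate 1) and Ccnd2 (0.32 ± 0.18, adjusted p = 0.434, and 0.14 without it), had estimates above 0. E2f5 (0.42 ± 0.12, adjusted p = 0.263) and the E2F partner Tfdp2 (0.44 ± 0.14, adjusted p = 0.278) were on the higher side. Cdkn2a, which is also on the list of 28, had a mean under 1 TPM and was not tested.

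Of 15 other chromatin copying genes, 3 were higher (20%, background 6.53%) and 0 lower (background 8.05%) at an unadjusted p under 0.05. When WT replicate 1 was left out, 2 were higher (background 5.36%) and 0 lower (background 6.13%). Among them were the histone methyltransferase Ezh2 (0.33 ± 0.11, adjusted p = 0.287) and the histone-binding protein Rbbp7 (0.41 ± 0.17, adjusted p = 0.322). Among 25 mitosis genes, WT replicate 1 was the lowest library for 24, and the median log2 fold change was 0.17 with all libraries and -0.03 without it. The spindle protein Nusap1 (0.65 ± 0.17, adjusted p = 0.254) and cyclin B2 (Ccnb2, 0.44 ± 0.17, adjusted p = 0.312; 0.28 without WT replicate 1) were the 2 mitosis genes at an unadjusted p under 0.05 (8%, background 6.53%), both higher. Without WT replicate 1, 1 was higher (background 5.36%) and 1 lower (background 6.13%).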

How the data were processed

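RNA was measured in crypts of 3 WT and 3 Mtg16-/- mice, grouped by the labels. Replicates are separate mice. Gene levels were estimated by the authors with RSEM, and the deposited values are TPM with 2 decimals. The submitters' processing notes list cutadapt 1.9.1, STAR 2.5.2a, RSEM 1.3.0, DESeq2 1.12.3 and mm10, without roles. Strand settings are not given in the sources used here. TPM keeps no depth, so no count test was run.

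Values were transformed to log2(TPM + 1) (pseudocount 1), and fold changes on this scale understate those of low genes. The 12268 genes with a mean of at least 1 TPM were fitted in limma 3.58.1 (R 4.3.3; lmFit, eBayes with trend, no covariate), with Benjamini-Hochberg adjustment and calls at an adjusted p under 0.1. The fit was tested on simulated data.

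The 53 genes, the other lists and the markers were chosen with earlier results of these data known. Genes were named by a rule: within each role, the highest mean TPM and the largest estimate in each direction, plus any gene at an unadjusted p under 0.05, and from each further list at most the 3 with the smallest p. Gins1, Prim2, Rpa2, Ccnd1, Ccnd2, some of the cell type markers and all ratios were added after their values were seen. Further ratios were computed and are not printed, some of which overlapped between groups, such as Gins4 to Gins2. A gene that the rule names among the other chromatin copying genes is not reported here. Promoters came from RefSeq (GRCm38.p6). Alternatives covered pseudocount, filter, scaling, moderation, replicate block and leaving out each library.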

Additional observations from a re-analysis of the deposited data

How the results depend on the processing

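The 53 genes had 0 calls in all alternatives except those with a replicate block. Their median log2 fold change was 0.12 and moved by less than the within-group SD of 0.23 (leave-one-out range -0.03 to 0.21). That limit is larger than the median itself, so it could not flag the change of sign to -0.03 without WT replicate 1. Genes called over the table numbered 4, and 15 with a mean of at least 5 TPM, 20 with robust moderation, 1 with quantile normalization, 0 with median-ratio rescaling, with no filter, with no trend, at an adjusted p under 0.05 or centred on the mean of the 53 genes, and 0 to 20 leaving out 1 library (20 without WT replicate 1). Of the 53, 0 to 6 were higher and 0 to 2 lower at an unadjusted p under 0.05 leaving out 1 library, with 6 higher without Mtg16-/- replicate 1 and 0 higher without replicate 2 or 3. With no trend 1 was lower (Gins3). Background shares were 5.36% higher and 6.13% lower without WT replicate 1, and are not given for the other leave-one-out fits or with no trend. Centring, chosen after seeing the data, shifted the median of all genes to -0.13. It left 1 higher (Tk1, background 2.45%) and 1 lower (Gins3, background 3.39%).

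Same-numbered mice are different animals and no block is stated for them, so the main fit did not pair them by number. The deviations of same-numbered libraries correlated at 0.429, 0.0753 and 0.237, and 5 of 6 libraries correlated best with their own number. These values do not settle whether the numbers mark a shared batch. With the replicate block, 1201 genes were called (9.79%), among them 2 of the 53 (Rfc3, adjusted p = 0.0732, and Tk1, adjusted p = 0.0287), and 8 of the 53 (background 8.52%) were higher at an unadjusted p under 0.05. Block and centring together called 1160 genes and 1 of the 53 (Tk1), with 3 lower at an unadjusted p under 0.05, for which no background share is given.

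Of 37 named genes, not counting Ccnd1, Ccnd2 and the cell type markers, 4 changed sign in at least 1 alternative. Pola2 was at 0.0012 under quantile normalization. Leaving out 1 library, Pola2 ranged from -0.17 to 0.0097, Pcna from -0.0032 to 0.30, Uhrf1 from -0.16 to 0.26 and Cbfa2t3 from -0.26 to 0.15. The causes were not tested. Depth could not be weighed, since TPM holds none.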
